A study of Mus musculus with 26 samples.

Results

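The genes described here encode the proteins of the cytosolic ribosome. They were chosen by symbol alone: every gene of the deposited count table whose symbol reads Rpl or Rps followed by a number, by p0 to p2 or by a, which leaves out pseudogenes, mitochondrial ribosomal proteins and paralogues with longer names. The rule found 77 genes among the 25239 genes of the count table, 46 of the large subunit and 31 of the small subunit, and all 77 were present in each of the 6 deposited tables. No measured value entered the rule, but the genes were chosen with earlier results of these data known.

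RNA was sequenced from 26 libraries of mouse embryonic stem cells, labelled C57BL/6 and grown in serum on gelatin. The HMCES-KO cells lack a working Hmces, which encodes a sensor that binds abasic sites in single-stranded DNA, and the wild-type (WT) cells carry no named alteration. The untreated count table held HMCES-KO lines named KO7 and KO8 in its columns, with 2 libraries each, and 2 WT libraries under the column name ES. The untreated TPM table held 2 HMCES-KO libraries in columns that begin with K8, with no line in the labels, and 2 WT libraries under the column name CCE. CCE is also the name of another mouse embryonic stem cell line, so in every comparison within that table the origin of the WT cells and the genotype cannot be told apart. The 4 treated tables came from cells exposed for 2 h to 50 ng/ml activin A, 10 µM SB431542 (an inhibitor of activin and nodal receptors), 10 ng/ml BMP4 or 50 nM LDN193189 (an inhibitor of BMP receptors), each with 1 library of line KO1, 1 of line KO2 and 2 of WT. The labels call the lines of the count table KO1 and KO2 too, and no source used here says which of them is KO7 or KO8, or how the lines were made. Nor does any say that replicate libraries were grown as separate cultures, so a p-value here reflects library-to-library spread that could be purely technical.

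Each cytosolic ribosome holds a single copy of nearly every ribosomal protein around its RNA core, so cells make these proteins in matched amounts, and their mRNAs are among the most abundant in dividing cells. In mammals nearly all of these mRNAs begin with a terminal oligopyrimidine (TOP) tract, a C followed by a run of C and T, through which growth signals adjust their translation. Their genes are short, have many exons, often hold small nucleolar RNAs in their introns, and have left many processed pseudogenes across mammalian genomes, which makes short reads hard to assign.

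RefSeq promoter windows on GRCm38.p6, from 250 bases before to 50 after the annotated start, were matched for 57 of the 77 genes. The windows shown here, 40 bases before to 20 after the start, are those of genes whose levels differed between HMCES-KO and WT cells below. Capitals mark CCGGAAG, the core bound by ETS-family factors, in Rpl6 and Rpl26, and the pyrimidine tract at the start in Rpl28, Rpl14 and Rpl15, while Rpl4 held no searched motif in this stretch.
Rpl6 at chr5:121204461-121204520, plus strand: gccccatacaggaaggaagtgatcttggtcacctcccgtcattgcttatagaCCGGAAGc
Rpl26 at chr11:68901526-68901585, plus strand: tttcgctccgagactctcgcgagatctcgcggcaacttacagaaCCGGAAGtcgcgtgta
Rpl4 at chr9:64173347-64173406, plus strand: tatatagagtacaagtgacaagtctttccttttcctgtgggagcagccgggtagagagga
Rpl28 at chr7:4792925-4792984, plus strand: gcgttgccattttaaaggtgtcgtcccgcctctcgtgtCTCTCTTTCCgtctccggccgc
Rpl14 at chr9:120571477-120571536, plus strand: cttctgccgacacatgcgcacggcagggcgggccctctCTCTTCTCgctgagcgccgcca
Rpl15 at chr14:18270967-18271026, minus strand: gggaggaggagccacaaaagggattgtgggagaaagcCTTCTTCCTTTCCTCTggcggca

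A C from 3 bases before to 5 after the start, followed by at least 4 more of C or T on the sense strand, was found in 25 of the 57 matched genes (43.9%), against 15.1% of 18445 other genes of the tables. The ETS core, CCGGAAG or CTTCCGG anywhere in the window, was found in 24 (42.1%), against 12.7% of the others. AAGATGG or CCATCTT, the core bound by the factor YY1, was found in 9 (15.8%), against 7.2%. TATAAA from 40 to 20 bases before the start was found in 0 of the 57, against 2.92%. The annotated start can lie some bases from the start used in these cells, so a missing tract says only that these letters were not in the window searched.

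The targeted gene was lower in every HMCES-KO library than in every WT library of its table. Hmces had 1651 and 1233 reads in KO7, 824 and 841 in KO8, and 3665 and 3630 in WT cells of the count table. It had 780 and 694 reads in the HMCES-KO libraries and 3519 and 3420 in the WT libraries of the untreated TPM table. In the treated tables KO1 libraries had 325 to 400 TPM, KO2 libraries 143 to 184 and WT libraries 507 to 663. The sources used here do not name the altered part of the gene, so reads outside it check nothing, and the remaining reads say nothing of the protein.

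Stem cell markers were high in all 26 libraries, with 8 of 8 detected and a summed level of 10345 TPM or more. The endoderm list (Gata4, Gata6, Sox17, Sox7, Foxa2, Dab2, Cubn and Amn) moved with genotype in the count table, with 8 of 8 lower in HMCES-KO cells, a summed level of 10.5 to 23.1 TPM in the 4 HMCES-KO libraries and of 61.5 to 69.8 TPM in the 2 WT libraries. In the untreated TPM table it summed to 16.5 to 16.8 TPM in HMCES-KO cells and 21.1 to 21.4 TPM in WT cells, with 1 of the 6 genes tested called lower. In treated cells 4 of 8 were called lower, and the sum was below that of WT cells within every agent. It was 20.3 to 22.8 TPM in HMCES-KO cells and 40.2 to 42.1 TPM in WT cells with activin A, and 17.9 TPM in both HMCES-KO libraries and 31.2 to 35.5 TPM in WT cells with SB431542. It was 45.6 to 50.9 TPM in HMCES-KO cells and 78.2 to 86.1 TPM in WT cells with BMP4, and 35.8 to 57.3 TPM in HMCES-KO cells and 60.3 to 76.5 TPM in WT cells with LDN193189. The 9 fibroblast markers summed to 17.5 to 26.7 TPM in HMCES-KO cells and 62.7 to 62.9 TPM in WT cells of the count table, with Postn and Lum at 0 in both. They summed to 21.7 to 27.4 TPM in HMCES-KO cells and 34.4 to 36.2 TPM in WT cells of the untreated TPM table, and to 4.36 to 22.8 TPM in HMCES-KO cells and 29.9 to 45.1 TPM in WT cells of the treated tables, which list 3 or 4 of the 9. No HMCES-KO library reached a WT library in any of these. The part of these markers in the ribosomal protein results was not tested.

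The 77 genes took a small share of the counted reads. Whether reads that were hard to assign lowered that share was not tested. They drew 62020 to 85656 reads per library of the count table, out of 9571113 to 13512922, or 0.624% to 0.673%. They drew 0.561% to 0.611% of the reads in the untreated TPM table and 1.07% to 1.23% in the treated tables, where libraries held 4121519 to 5545793 reads and 48703 to 63396 of them fell on these genes. Per unit of length their share was larger, at 1.96% to 2.09% of TPM in the count table, 1.86% to 1.95% in the untreated TPM table and 2.55% to 2.90% in the treated tables. The tables were normalized separately, so these levels were set side by side with no test.

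Within the group the levels in WT cells of the count table ran from 0 to 8800 TPM. Rpl8, a large subunit protein next to the peptidyl transferase centre, led with 7852 and 7847 TPM in KO7, 8276 and 8483 TPM in KO8, and 8834 and 8765 TPM in WT cells, and it alone drew 38.8% to 42.9% of the group's reads in the count table. Rpl14 stood at 1135 ± 72.3 TPM in HMCES-KO cells (SD, n = 4) and 1111 ± 16.6 TPM in WT cells (SD, n = 2). The short basic protein gene Rpl41 stood at 821 ± 21.3 TPM in HMCES-KO cells and 914 ± 77.6 TPM in WT cells, and Rpl13a at 541 ± 38.4 TPM in HMCES-KO cells and 528 ± 23.4 TPM in WT cells. In WT cells Rpl8, Rpl14, Rpl41 and Rpl13a differed from each other in this order by more than their spread.

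At the other end, Rpl26 is listed at 0 in all 10 untreated libraries, while it had 93 to 271 reads in the 16 treated libraries. Every cell uses Rpl26, and whether the 0 came from how the untreated tables were counted or annotated was not tested. Rpl30 had 3.92 ± 1.25 TPM in HMCES-KO cells and 3.36 ± 3.19 TPM in WT cells of the count table, from 3 to 13 reads per library. Rps15a had 7.30 ± 1.47 TPM in HMCES-KO cells and 6.17 ± 1.32 TPM in WT cells. Rpl24, which forms a bridge to the small subunit, had 9.69 ± 2.65 TPM in HMCES-KO cells and 8.30 ± 1.21 TPM in WT cells, and Rpl38 had 7.81 ± 5.86 TPM in HMCES-KO cells and 8.71 ± 1.00 TPM in WT cells. The 4 HMCES-KO libraries of Rpl30 all lay below the 4 of Rps15a, and the 2 WT libraries of Rps15a lay just below the 2 of Rpl24. The other neighbours in this order overlapped. The median gene of the group drew 122 to 187 reads per library of the count table and 108 to 148 in the treated tables.

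How many reads a gene could draw may depend on how much of its mRNA is found nowhere else, and how shared reads were counted was not tested. Over GENCODE vM21 transcripts, 93.5% of the windows of 50 bases in the Rpl8 mRNA and 97.0% of those in Rps3 were found in no other gene. The share was 1.35% for Rps27, 4.91% for Rpl35, 6.16% for Rpl5 and 6.68% for Rpl9, whose reads can be split with near-identical copies, so their values are uncertain. The same limit holds for Rpl10a (11.9%), Rpl3 (14.4%) and Rps6 (15.4%). Across the 77 genes this share and the WT level on the log2(TPM + 1) scale gave a Pearson r of 0.24 and a Spearman rho of 0.15 in the count table, a weak relation across genes that share library and depth. The 26 genes with the least unique sequence had a median of 43.4 TPM in WT cells of the count table. The middle 25 had 41.9 TPM and the 26 with the most had 48.7 TPM. In the same order the medians were 46.8, 50.8 and 92.2 TPM in WT cells of the untreated TPM table. They were 39.96, 57.2 and 74.2 TPM in treated WT cells. The Spearman rho of the share was 0.16 in the untreated TPM table and 0.14 in the treated tables. For the number of other genes sharing sequence, rho was -0.21 in the count table, -0.27 in the untreated TPM table and -0.37 in the treated tables.

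**Figure D1:**
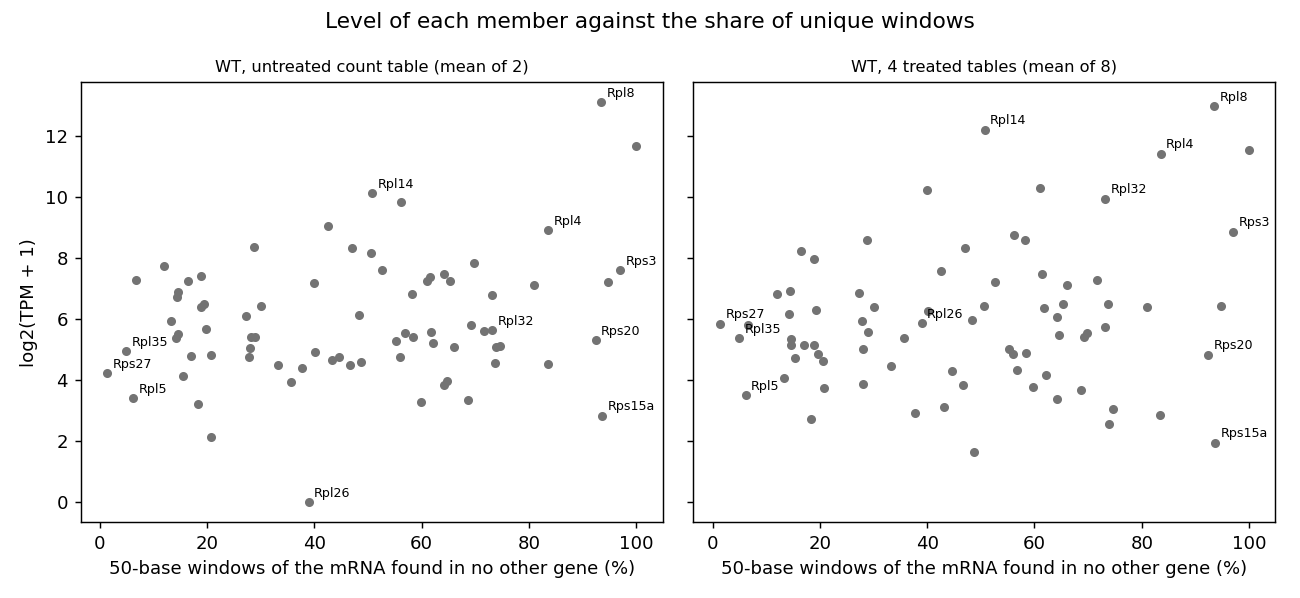
Each point is 1 of the 77 genes. The x axis gives the share of 50-base windows of its mRNA found in no other gene, in percent, and the y axis its mean WT level as log2(TPM + 1), on the left in the untreated count table (mean of 2 libraries) and on the right in the treated tables (mean of 8). Rpl8 stands at the top right in both. In the left panel the highest level was 330 TPM among the 26 genes with the least unique sequence. It was 1111 TPM among the middle 25 and 8800 TPM among the 26 with the most.

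As a group the genes differed little between genotypes. Their summed level in the count table was 1.97% and 1.96% of TPM in KO7, 2.05% and 2.07% in KO8, and 2.02% and 2.09% in WT cells, and the ranges overlapped. In the untreated TPM table it was 1.898% and 1.949% in HMCES-KO cells and 1.86% and 1.91% in WT cells, again overlapping. With activin A it was 2.70% and 2.68% in HMCES-KO cells and 2.59% and 2.72% in WT cells.

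With the other agents the sum in each HMCES-KO library lay below that in both WT libraries. The summed level was 2.55% and 2.55% in HMCES-KO cells and 2.70% and 2.71% in WT cells with SB431542, 2.68% and 2.73% in HMCES-KO cells and 2.86% and 2.90% in WT cells with BMP4, and 2.63% and 2.72% in HMCES-KO cells and 2.84% and 2.89% in WT cells with LDN193189. The ratios of HMCES-KO to WT means were 0.943 ± 0.004, 0.940 ± 0.016 and 0.935 ± 0.026 (SD from the 2 libraries of each group). These 3 were 0.967, 0.966 and 0.962 for the share of reads. The summed level was set mostly by the largest members, since the 3 most read members of each library drew 50.6% to 62.4% of the group's reads over the 26 libraries. Where each member counted alike, as in the mean of log2(TPM + 1), the untreated TPM table gave 5.93 ± 0.04 in HMCES-KO cells and 6.10 ± 0.01 in WT cells, the opposite direction to its summed level. That mean overlapped with SB431542, at 5.92 and 5.89 in HMCES-KO cells and 5.91 and 5.95 in WT cells. It overlapped with LDN193189 too, at 5.93 and 5.81 in HMCES-KO cells and 5.87 and 6.06 in WT cells. With BMP4 it did not, at 5.953 and 5.855 in HMCES-KO cells and 5.957 and 6.088 in WT cells.

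**Figure D2:**
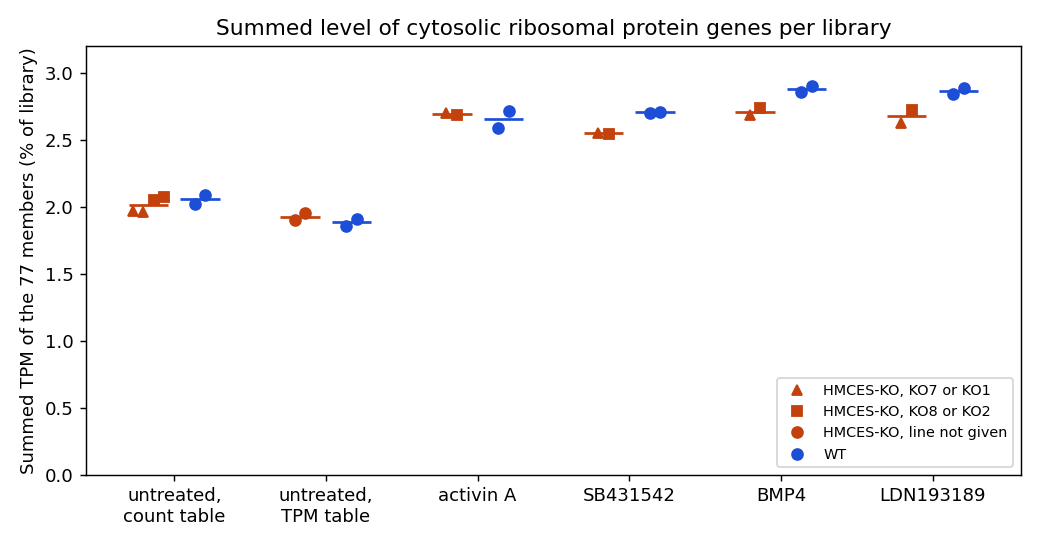
Summed TPM of the 77 genes as a percent of each library (y axis) for the untreated and treated tables (x axis), with HMCES-KO libraries in orange to the left of WT libraries in blue and a line at each mean over 2 or 4 libraries. The 2 groups overlap in both untreated tables and with activin A, and the HMCES-KO libraries lie below WT with SB431542, BMP4 and LDN193189.

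In untreated cells of the count table, 14 of the 76 genes tested differed between HMCES-KO and WT cells, 13 higher and 1 lower in HMCES-KO cells (edgeR quasi-likelihood test on counts, mean of KO7 and KO8 against WT, Benjamini-Hochberg adjusted p under 0.05). That is 18.4% of the members tested, against 40.6% of the 13475 genes tested, and no test of that difference was run. Rpl26, at 0 reads, was not tested. The higher genes were Rps27, Rps6, Rpl35, Rps7, Rpl15, Rps9, Rpl13, Rps23, Rpl36, Rpl22, Rpl27, Rpl27a and Rpl10a, and the lower gene was Rpl9. The median log2 fold change was 0.10 over the members and -0.01 over all genes tested, and 52 members lay above 0 and 24 below. In these bulk libraries fewer cells of a type and less RNA per cell cannot be told apart.

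The direction of these calls rested on 1 WT library, and their number also moved with the scaling. WT replicate 1 had the lowest mean of log2(TPM + 1) over the members, at 5.82, against 5.96 to 6.02 in the other 5 libraries of the table. Without it, 9 members were called, 4 higher and 5 lower, and the median was 0.01. Without WT replicate 2, 27 were called, 26 higher and 1 lower, with a median of 0.23. Scaling by library size alone gave 8 higher and 3 lower, upper-quartile scaling 10 higher and 3 lower, DESeq2 6 higher and 1 lower, and a fit with the 4 HMCES-KO libraries as 1 group 2 higher and 1 lower. Over all genes, scaling by library size gave 1993 higher and 3497 lower, against 2677 higher and 2799 lower with TMM scaling.

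Rpl15 and Rpl9 were called under each of the 15 alternatives run for them. Rpl15, a large subunit protein needed for early assembly of that subunit, had 3158 and 2372 reads in KO7, 1929 and 2080 in KO8, and 1936 and 1723 in WT cells. That was 326 and 335 TPM in KO7, 282 and 277 TPM in KO8, and 225 and 235 TPM in WT cells, so all 4 HMCES-KO libraries lay above both WT libraries (log2 fold change 0.44 ± 0.05 SE, edgeR adjusted p = 1.35e-06). Rpl9 had 380 and 249 reads in KO7, 210 and 239 in KO8, and 521 and 384 in WT cells. Its levels were 107 and 95.9 TPM in KO7, 83.6 and 86.9 TPM in KO8, and 165 and 143 TPM in WT cells, with no overlap (log2 fold change -0.69 ± 0.09, edgeR adjusted p = 4.41e-06). As 6.68% of the Rpl9 windows are unique, part of its reads may belong to copies elsewhere in the genome.

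Rps6, the small subunit protein phosphorylated by S6 kinases, had 24.9 and 26.2 TPM in KO7, 23.0 and 24.8 TPM in KO8, and 14.5 and 18.8 TPM in WT cells, from 88 to 170 reads per library. The groups did not overlap (log2 fold change 0.62 ± 0.15, edgeR adjusted p = 0.00255), and the call was lost without WT replicate 1. Rps27, a zinc-finger protein of the small subunit, had 75 and 51 reads in KO7, 49 and 75 in KO8, and 47 and 36 in WT cells (log2 fold change 0.66 ± 0.21, edgeR adjusted p = 0.0165), with 1.35% of its windows unique, and its call was lost with DESeq2, without KO7 replicate 1 and without KO8 replicate 2. Rpl35, which lies at the exit of the peptide tunnel, had 95 and 50 reads in KO7, 80 and 80 in KO8, and 42 and 64 in WT cells, with overlapping groups (log2 fold change 0.58 ± 0.22, edgeR adjusted p = 0.0434), and its call was lost under 9 of 15 alternatives. Rps7, a small subunit protein needed to process its RNA, had 192 and 127 reads in KO7, 133 and 139 in KO8, and 111 and 114 in WT cells (log2 fold change 0.46 ± 0.14, edgeR adjusted p = 0.0111), and its call was also lost without WT replicate 1.

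The stalk proteins and the best known regulators did not pass this test. Rplp0, the base of the stalk that recruits translation factors, had a log2 fold change of -0.13 ± 0.08, Rplp1 of 0.09 ± 0.12 and Rplp2 of 0.31 ± 0.19. Rpl5 and Rpl11, which bind Mdm2 when they are free of the ribosome, had log2 fold changes of 0.36 ± 0.16 and 0.37 ± 0.15 (edgeR adjusted p = 0.0788 and 0.0542). Rpl3 had 0.05 ± 0.08, Rpl4 -0.05 ± 0.06, Rps3 -0.04 ± 0.05, Rpl10 0.05 ± 0.09 and Rpsa, also known as the laminin receptor, 0.01 ± 0.11. Rps19 and Rps26, whose loss causes Diamond-Blackfan anaemia in humans, had 0.17 ± 0.14 and 0.37 ± 0.17.

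**Figure D3:**
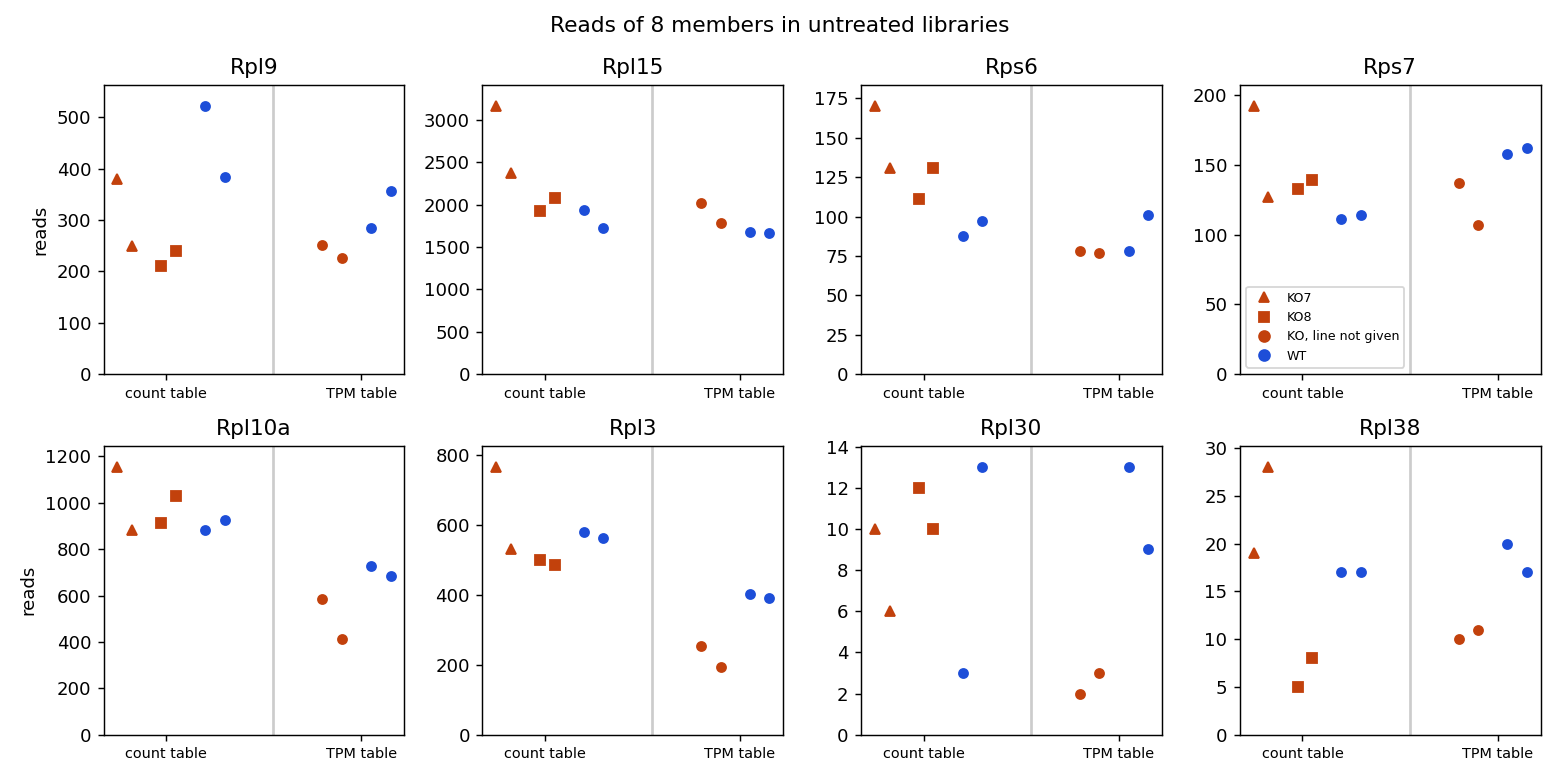
Reads per library (y axis) of 8 genes in the untreated count table (left of each panel, KO7 and KO8 in orange, WT in blue) and in the untreated TPM table (right, reads recovered from TPM). Rpl9 has 210 to 380 reads in HMCES-KO cells of the count table and 384 or more in WT cells, Rpl3 and Rpl10a have fewer reads in both HMCES-KO libraries of the TPM table than in either WT library, and Rpl30 and Rpl38 have 28 reads or fewer.

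Each HMCES-KO line was also set against the same 2 WT libraries, so these comparisons share their controls. KO7 had 13 members higher and 3 lower (21.1% of members, against 38.2% of all genes tested), and KO8 had 15 higher and 2 lower (22.4%, against 38.9%). Rpl9 was lower in KO7 (log2 fold change -0.56 ± 0.10, edgeR adjusted p = 0.000243) and in KO8 (-0.82 ± 0.11, edgeR adjusted p = 5.31e-06). Rpl15 was higher in KO7 by 0.56 ± 0.06 on the log2 scale (edgeR adjusted p = 2.73e-07). Without WT replicate 1 the counts were 6 higher and 6 lower in KO7 and 6 higher and 3 lower in KO8, and without WT replicate 2 they were 25 and 3 in KO7 and 27 and 1 in KO8. Without KO7 replicate 1 the KO7 line had 6 calls and without KO7 replicate 2 it had 7, and the KO8 line had 8 without KO8 replicate 1 and 6 without KO8 replicate 2. With scaling by library size KO7 had 6 higher and 4 lower.

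The lines differed from each other in 9 members, 5 higher and 4 lower in KO8, or 11.8% of members against 28.2% of all genes tested in the same fit. Rpl38, whose loss alters the translation of Hox mRNAs in mouse embryos, had 5 and 8 reads in KO8, 19 and 28 in KO7 and 17 and 17 in WT cells (log2 fold change of KO8 over KO7 -1.65 ± 0.49, edgeR adjusted p = 0.0153). Rps19 had 215 and 194 reads in KO8 and 210 and 143 in KO7 (0.43 ± 0.16, edgeR adjusted p = 0.0426). Rps25, Rpl15 and Rpl13a were also lower in KO8, and the higher genes included Rps3, Rpl31 and Rps23. Leaving out 1 library changed this count, and the counts over all genes changed too. Whether the members changed more than all genes was not tested.

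In the second untreated set the balance of calls lay on the other side. Of 76 members tested in the untreated TPM table, 19 differed, 2 higher and 17 lower in HMCES-KO cells (limma with a trended prior on log2(TPM + 1), Benjamini-Hochberg adjusted p under 0.05), which is 25% of members against 16% of the 13314 genes tested. The median log2 fold change was -0.15 over the members and -0.06 over all genes tested. The lower genes included Rpl30, Rpl3, Rpl17, Rpl24, Rpl38, Rps13, Rpl5, Rps26, Rpl7a, Rpl10a, Rps10, Rps7, Rps24, Rps25, Rpl10 and Rpl36, and the higher genes were Rpl13a and Rpl15. Scaled on TMM factors the split was 5 higher and 14 lower, centred on the median gene 4 higher and 11 lower, and edgeR on the whole reads recovered from TPM gave 10 higher and 11 lower. Without WT replicate 1 there were 5 calls, without WT replicate 2 there were 2, and without HMCES-KO replicate 1 there were 37.

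Rpl3, a large subunit protein that reaches into the peptidyl transferase centre, had 253 and 195 reads in HMCES-KO cells and 403 and 391 in WT cells. That was 53.5 and 48.2 TPM in HMCES-KO cells and 89.4 and 88.7 TPM in WT cells, with no overlap (log2 fold change -0.80 ± 0.07, limma adjusted p = 0.00329), and the call held under each alternative run for it. Rpl10a, of the stalk where spent transfer RNA leaves, had 584 and 412 reads in HMCES-KO cells and 727 and 683 in WT cells (log2 fold change -0.49 ± 0.09, limma adjusted p = 0.0208). Rpl5 had 74 and 57 reads in HMCES-KO cells and 105 and 108 in WT cells (log2 fold change -0.63 ± 0.12, limma adjusted p = 0.0208). In each of these the 2 HMCES-KO libraries lay below both WT libraries. Unique windows made up 14.4% of Rpl3, 11.9% of Rpl10a and 6.16% of Rpl5, so part of their reads may belong to copies.

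The largest fold changes of this table belonged to genes with few reads. Rpl30 had 2 and 3 reads in HMCES-KO cells and 13 and 9 in WT cells (difference on the log2(TPM + 1) scale -1.49 ± 0.26, limma adjusted p = 0.018). Rpl24 had 21 and 26 reads in HMCES-KO cells and 42 and 44 in WT cells (-0.79 ± 0.18, limma adjusted p = 0.0343), and Rpl38 had 10 and 11 in HMCES-KO cells and 20 and 17 in WT cells (-0.70 ± 0.16, limma adjusted p = 0.0392). The calls of Rpl24 and Rpl38 were lost with edgeR on the recovered reads. Rpl17 had 71 and 42 reads in HMCES-KO cells and 109 and 89 in WT cells (-0.79 ± 0.18, limma adjusted p = 0.0362). On the higher side, Rpl13a, which is released from the ribosome upon interferon signalling in human cells, had 2055 and 1828 reads in HMCES-KO cells and 1663 and 1601 in WT cells (0.28 ± 0.04, limma adjusted p = 0.00843). Rpl15 had 293 and 304 TPM in HMCES-KO cells and 256 and 261 TPM in WT cells (0.21 ± 0.04, limma adjusted p = 0.0211).

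In treated cells the members split both ways. Over the 4 treated tables, 29 of 77 members differed, 14 higher and 15 lower in HMCES-KO cells (limma with a trended prior on log2(TPM + 1), 16 libraries fitted together, mean of the 4 contrasts), which is 37.7% of members against 34.5% of the 12608 genes tested. The median log2 fold change was 0.04 over the members and -0.04 over all genes tested. Centring on the median gene gave 18 higher and 13 lower, TMM factors on TPM 17 higher and 13 lower, and edgeR on recovered reads 13 higher and 13 lower. The libraries of 1 HMCES-KO line shared deviations across treatments (r of 0.23 to 0.32 across genes), so the 8 libraries of that genotype are not independent and these p-values are too small. With treatments averaged first, leaving 2 against 2, 17 members were called. Of these 5 were higher (Rpl28, Rpl26, Rpl3 and Rpl14 among them) and 12 lower (Rpl32, Rpl6, Rps14, Rps4x, Rpl7, Rps3a1, Rpl4, Rps7, Rps3, Rpl9, Rplp0 and Rps15). The 34.5% of all genes comes from the fit of 16 libraries, so it is not the share to set beside these 17. The share of all genes in the averaged fit is not given here. The 17 thus do not say whether members were called more often than other genes.

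Of the lower genes, 5 did not overlap between all 8 HMCES-KO and all 8 WT libraries: Rpl32, Rpl6, Rps14, Rps4x and Rpl4. They were 6.49% of members, against 4.69% of all 12608 genes tested (591 genes) with every HMCES-KO library below every WT library. Rpl32, a large subunit protein, had 229 to 691 TPM in HMCES-KO cells, with a median of 326 TPM from 231 to 702 reads, and 766 to 1178 TPM in WT cells, with a median of 982 TPM from 636 to 1049 reads. Its mean log2 fold change was -1.47 ± 0.15 (limma adjusted p = 1.59e-05), and it was -1.71 ± 0.15 in KO1 and -1.23 ± 0.15 in KO2. The highest HMCES-KO library was KO2 with LDN193189, at 691 TPM, and the other 7 had 467 TPM or less. Rpl32 lies on chromosome 6 at 115805505 to 115808747 and was the only member on that chromosome.

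Rpl6, a large subunit protein, had 15.1 to 21.1 TPM in HMCES-KO cells (72 to 96 reads) and 28.3 to 52.3 TPM in WT cells (120 to 201 reads), a log2 fold change of -1.13 ± 0.09 (limma adjusted p = 1.77e-06). Rps14, on the platform of the small subunit, had 55.3 to 109 TPM in HMCES-KO cells (median 68.7 TPM) and 120 to 193 TPM in WT cells (median 150 TPM), a log2 fold change of -1.08 ± 0.11 (limma adjusted p = 1.17e-05). Rps4x, the X-linked small subunit gene, had 22.3 to 44.3 TPM in HMCES-KO cells (median 31.2 TPM, 71 to 122 reads) and 48.6 to 69.4 TPM in WT cells (median 60.1 TPM, 134 to 207 reads), a log2 fold change of -0.92 ± 0.09 (limma adjusted p = 1.22e-05). All 3 were called lower in KO1 and in KO2, and Rpl6 and Rps14 with each of the 4 agents, while Rps4x was not called with activin A (-0.53 ± 0.19).

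Rpl4, which lines the peptide exit tunnel, had 1722 to 2334 TPM in HMCES-KO cells (median 1979 TPM, 4138 to 6441 reads) and 2516 to 2939 TPM in WT cells (median 2768 TPM, 5936 to 7283 reads). The fold change was smaller than those above and rested on many more reads (log2 fold change -0.47 ± 0.06, limma adjusted p = 6.24e-05). Rpl7 had 5.07 to 13.2 TPM in HMCES-KO cells and 8.77 to 17.2 TPM in WT cells, from 23 to 71 reads, with overlapping groups (-0.81 ± 0.17, limma adjusted p = 0.00246). Rps3, at the mRNA entry channel, had a median of 336 TPM in HMCES-KO cells and 456 TPM in WT cells (-0.40 ± 0.05), Rplp0 a median of 284 TPM in HMCES-KO cells and 393 TPM in WT cells (-0.38 ± 0.05), and Rpl9 a median of 42.6 TPM in HMCES-KO cells and 55.2 TPM in WT cells (-0.40 ± 0.06). The lowest WT library overlapped the highest HMCES-KO libraries for each of these last 3.

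Of the higher genes, 4 did not overlap between the 8 HMCES-KO and the 8 WT libraries: Rpl28, Rpl26, Rpl3 and Rpl14. They were 5.19% of members, against 2.33% of all genes tested (294 genes) with every HMCES-KO library above every WT library. Rpl28, a large subunit protein, had 198 to 321 TPM in HMCES-KO cells (median 261 TPM, 446 to 651 reads) and 127 to 195 TPM in WT cells (median 141 TPM, 232 to 351 reads), a log2 fold change of 0.78 ± 0.10 (limma adjusted p = 6.24e-05). Rpl26, which in human cells also binds the mRNA of p53, had 81.2 to 97.1 TPM in HMCES-KO cells (median 87.5 TPM) and 37.0 to 75.5 TPM in WT cells (median 55.1 TPM), a log2 fold change of 0.65 ± 0.06 (limma adjusted p = 7.86e-06). Its WT libraries varied with the agent, at 37.0 and 43.4 TPM with activin A and 75.5 and 74.7 TPM with BMP4.

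Rpl3 had 137 to 182 TPM in HMCES-KO cells (median 166 TPM, 315 to 505 reads) and 110 to 136 TPM in WT cells (median 121 TPM, 232 to 321 reads), a log2 fold change of 0.40 ± 0.07 (limma adjusted p = 0.000449). As 14.4% of the Rpl3 windows are unique, part of its reads may belong to copies elsewhere in the genome. Rpl14 had 5069 to 6395 TPM in HMCES-KO cells (median 5728 TPM) and 4341 to 5006 TPM in WT cells (median 4778 TPM), the smallest fold change of the 4 and the one with the most reads, 6884 to 11859 per library (0.29 ± 0.04, limma adjusted p = 0.000153). Rps29, a small zinc-finger protein, had the largest fold change (0.93 ± 0.30, limma adjusted p = 0.0301) from 16 to 31 reads in HMCES-KO cells and 3 to 22 in WT cells, a call that was lost under 13 of 28 alternatives, edgeR on the recovered reads among them. With the means over agents compared, 2 HMCES-KO against 2 WT, its limma adjusted p was 0.0602. Rpl13 had a median of 34.5 TPM in HMCES-KO cells and 27.4 TPM in WT cells (0.34 ± 0.09, limma adjusted p = 0.0111), with a limma adjusted p of 0.0799 at 2 against 2.

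**Figure D4:**
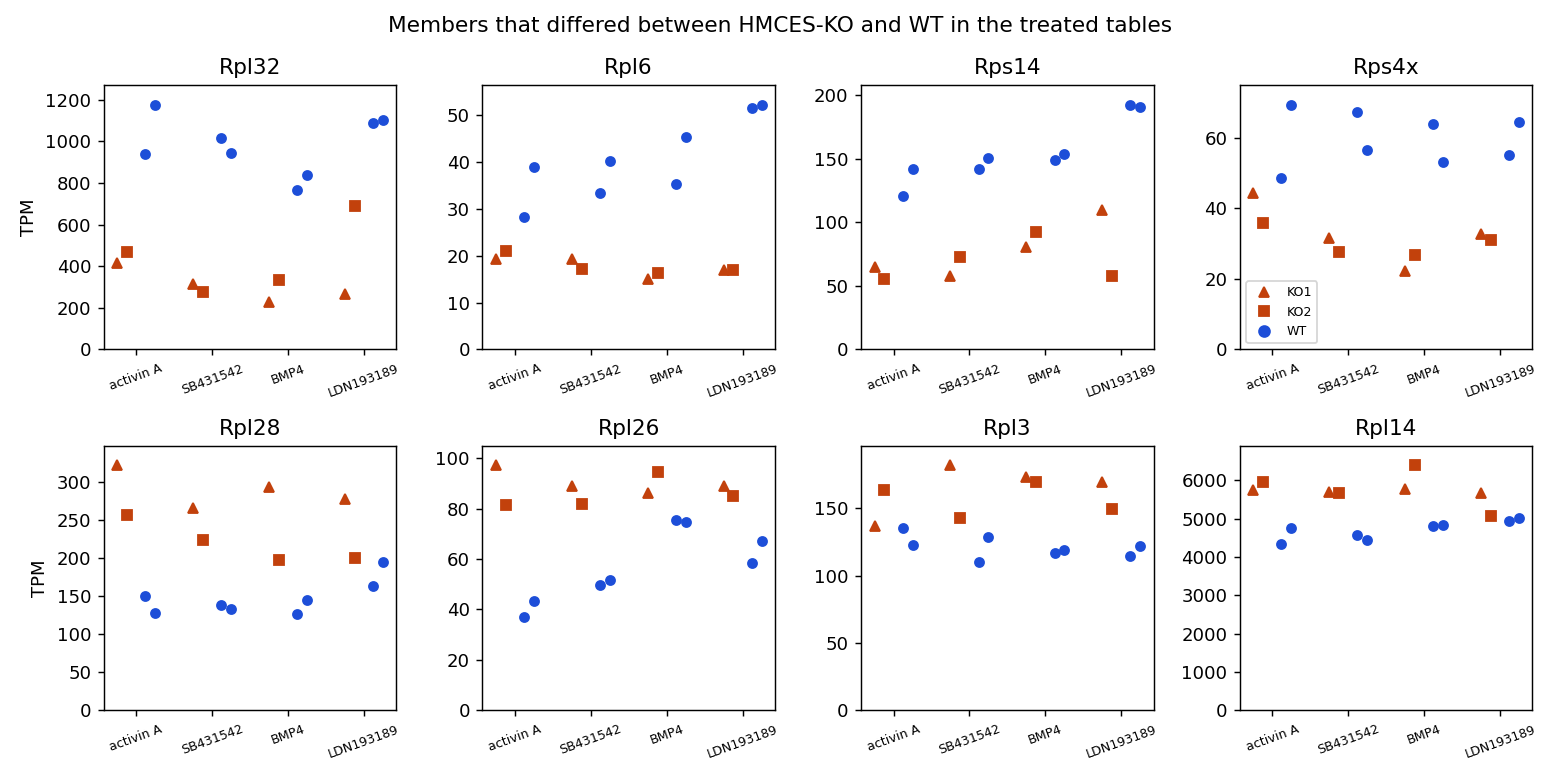
TPM per library (y axis) of 8 genes with each agent (x axis), with KO1 and KO2 libraries in orange to the left of the 2 WT libraries in blue. The 4 genes of the upper row are lower in all 8 HMCES-KO libraries and the 4 of the lower row are higher in all 8.

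By agent, the calls were fewer. With activin A 7 members were higher and 7 lower in HMCES-KO cells (18.2% of members, against 12.1% of all genes tested), with SB431542 7 higher and 9 lower (20.8%, against 12.1%), with BMP4 4 higher and 7 lower (14.3%, against 6.33%), and with LDN193189 0 higher and 5 lower (6.49%, against 2.29%). Rpl32, Rpl6 and Rps14 were called lower with all 4 agents, and Rps4x with 3. The call of Rps14 with BMP4 (limma adjusted p = 0.045) was lost under 16 of 28 alternatives, including TMM factors, median centring and that table fitted alone, and the call of Rpl32 with LDN193189 (limma adjusted p = 0.0374) under 11 of 28. Rpl32 ran from -1.26 ± 0.31 with activin A to -1.73 ± 0.31 with SB431542 on the log2 scale. Rpl14 was higher with activin A, SB431542 and BMP4, and Rpl26 with activin A and SB431542 (1.13 ± 0.12 and 0.74 ± 0.12). Leaving out 1 library of the same agent moved these counts. The activin A count was 3 without WT replicate 2, 5 without KO1 and 6 without KO2. The SB431542 count was 9 without WT replicate 1, 3 without WT replicate 2, 5 without KO1 and 10 without KO2. The BMP4 count was 3 without either WT library, 6 without KO1 and 5 without KO2, and 7 without any 1 WT library of SB431542 or LDN193189 and 17 without either HMCES-KO library of LDN193189. The LDN193189 count was 1 without either WT library.

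Whether the genotype difference itself depended on the agent was tested with the interaction. It was called for 0 of 77 members, against 0.0872% of all genes tested (limma F test), with 15 members at an unadjusted p under 0.05. The share of all genes at that unadjusted p is not given, so the 15 are no result about the members. The lowest p was that of Rps27a, which encodes ubiquitin fused to a ribosomal protein, with a limma adjusted p of 0.191. Rps27a had 13.2 and 13.5 TPM in HMCES-KO cells and 6.1 and 11.5 TPM in WT cells with activin A, but 8.3 and 8.2 TPM in HMCES-KO cells and 15.5 and 25.5 TPM in WT cells with BMP4, from 21 to 84 reads. A p above the threshold does not show that the genotype difference was alike with each agent.

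The agents themselves moved no member past the threshold. Activin A against SB431542 gave 0 of 77 calls, against 0.0872% of all genes (limma), with 4 members at an unadjusted p under 0.05, and 0 calls by edgeR on recovered reads. The log2 differences ran from -0.54 (Rps3a1, SE 0.18) to 0.55 (Rpl19, SE 0.16), with a median of 0.00. BMP4 against LDN193189 gave 0 of 77, against 0.0238% of all genes, with 5 members at an unadjusted p under 0.05 and 0 by edgeR, and the differences ran from -0.54 (Rpl32, SE 0.22) to 0.72 (Rpl24, SE 0.25). The 4 and 5 members stand here without the share of all genes at that unadjusted p. Each agent has a table of its own, so agent and table cannot be told apart.

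The treated lines differed in 4 members, all lower in KO2 than in KO1, or 5.19% of members against 6.58% of all genes tested (limma with line and treatment as additive terms). Rpl28 had 257, 223, 198 and 200 TPM in KO2 and 321, 265, 293 and 277 TPM in KO1 with activin A, SB431542, BMP4 and LDN193189, lower in KO2 with each agent (log2 difference -0.40 ± 0.11, limma adjusted p = 0.0438). Rpl34 had 27, 29, 25 and 33 reads in KO2 and 53, 47, 48 and 55 in KO1 (-0.74 ± 0.20, limma adjusted p = 0.0331). Rps25, needed for initiation at some viral internal entry sites, had -0.52 ± 0.14. Without SB431542 WT replicate 1 or 2, or BMP4 WT replicate 2, 2 calls were left. Without the KO1 library of activin A, SB431542 or BMP4 0 were left, without the KO2 library of SB431542 there were 3, and without any other HMCES-KO library 1.

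The calls were set side by side over 3 data sets, the count table, the untreated TPM table and the treated tables. Of the 77, 51 were called in at least 1 of them and 26 in none. Of the 76 members tested in all 3, 50 (65.8%) were called in at least 1, against 64.6% of the 11736 genes tested in all 3, and 2 (2.63%) in all 3, against 4.96%. The 2 were Rpl10a, which was higher in the count table (0.20 ± 0.08 on the log2 scale) and in treated cells (0.19 ± 0.05) but lower in the untreated TPM table (-0.49 ± 0.09), and Rps7, which was higher in the count table (0.46 ± 0.14) but lower in the untreated TPM table (-0.37 ± 0.07) and in treated cells (-0.45 ± 0.11). The count table and the untreated TPM table shared 4 calls, 28.6% of the count table's and 21.1% of the TPM table's, of which Rpl15 had 1 direction and Rpl10a, Rpl36 and Rps7 opposite ones. Over all genes tested in all 3 data sets, the same tables shared 21.2% of the count table's calls and 54.8% of the TPM table's, with 691 genes in 1 direction and 358 in opposite ones. The count table and the treated tables shared 5, which is 35.7% of the count table's calls and 17.2% of the treated tables'. Of these Rpl10a, Rpl13, Rpl35 and Rpl9 had the same direction and Rps7 the opposite one. Over all genes these shares were 43.0% and 50.4%, with 1562 genes in 1 direction and 571 in opposite ones. The untreated TPM table and the treated tables shared 4, which is 21.1% of the TPM table's calls and 13.8% of the treated tables'. Rpl13a and Rps7 had the same direction, and Rpl10a and Rpl3 opposite ones. All genes gave 48.3% and 21.8% for this pair, with 686 genes in 1 direction and 239 in opposite ones.

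Rpl32, Rpl6, Rps14 and Rps4x, which were lower in treated cells, were not called in either untreated table. Rpl32 had -1.47 in treated cells, -0.33 ± 0.16 in the count table and 0.57 ± 0.20 in the untreated TPM table, the untreated values not called. Rpl6 had 0.04 ± 0.20 in the count table and 0.25 ± 0.17 in the untreated TPM table, Rps14 had 0.17 ± 0.14 and 0.14 ± 0.17, and Rps4x had -0.14 ± 0.16 and 0.19 ± 0.29, none of them called. The level of Rpl32 itself stood at 46.0 and 52.0 TPM in WT cells of the count table, 138 and 134 TPM in WT cells of the untreated TPM table and 766 TPM or more in treated WT cells. Treatment, table and processing cannot be told apart in that comparison.

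**Figure D5:**
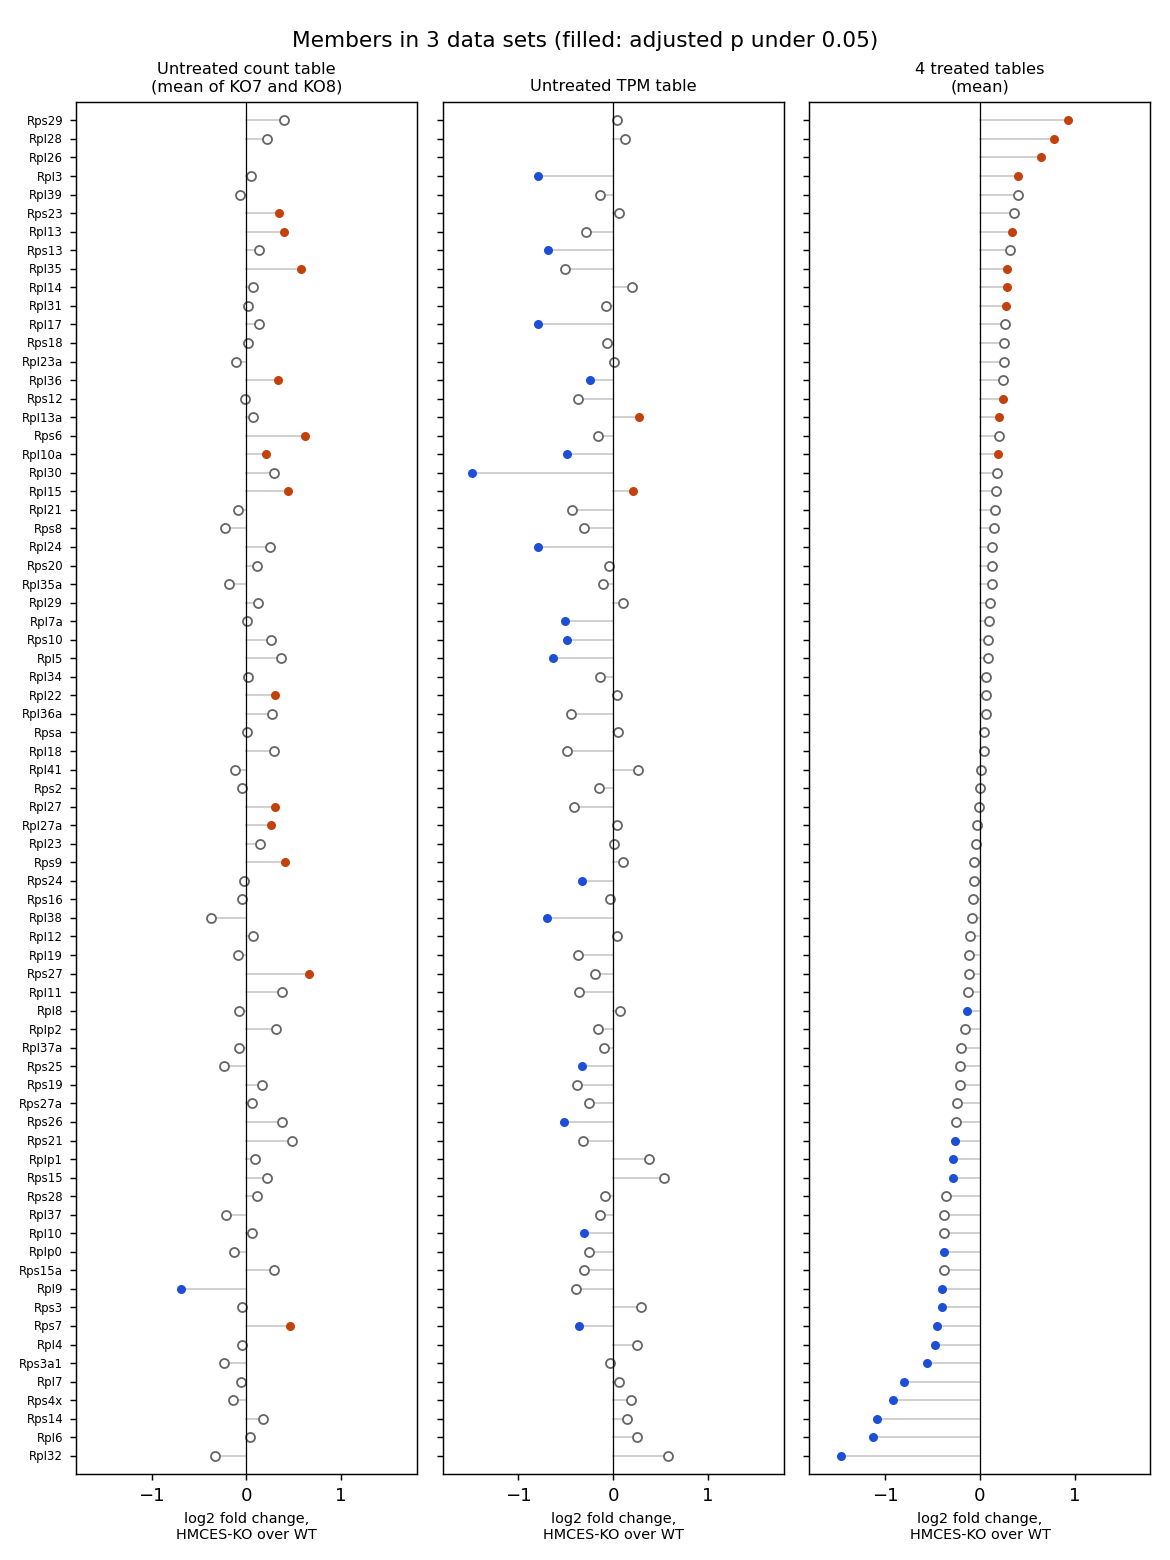
log2 fold change of HMCES-KO over WT cells (x axis) for 73 of the 77 genes (ordered from top to bottom by the treated tables) in the count table, the untreated TPM table and the treated tables, with filled points for an adjusted p under 0.05, orange where higher and blue where lower. The treated column runs from Rps29 at 0.93 to Rpl32 at -1.47, and the untreated columns follow another order.

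The promoter features were set beside the calls as counts, to be read against the 40.6% of all genes tested that were called in the count table, 16% in the untreated TPM table and 34.5% in treated cells. Of the 25 genes with a pyrimidine tract at the start, 7 were higher and 0 lower in HMCES-KO cells of the count table, 2 higher and 5 lower in the untreated TPM table, and 5 higher and 1 lower in treated cells. Of the 32 matched genes without one, 5 were higher and 1 lower in the count table, with 0 higher and 7 lower in the untreated TPM table, and 4 higher and 9 lower in treated cells. The 30 genes with a small nucleolar RNA gene inside them had 6 higher and 5 lower in treated cells, and the 47 without had 8 higher and 10 lower. The large subunit had 10 higher and 8 lower of 46 in treated cells and the small subunit 4 higher and 7 lower of 31.

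The fusion gene Fau and the scaffold gene Rack1 encode further ribosomal proteins that the symbol rule leaves out. In treated cells Fau had a log2 fold change of 0.13 ± 0.04 and Rack1 one of -0.14 ± 0.04 (limma adjusted p = 0.0257 and 0.0143). Neither was called in the count table, where Fau had 0.02 ± 0.05 and Rack1 -0.09 ± 0.04, and untreated TPM values put Rack1 higher in HMCES-KO cells (0.19 ± 0.04, limma adjusted p = 0.026).

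Lists of genes that work beside the ribosomal proteins were counted the same way, against the same shares of all genes (40.6%, 16% and 34.5% in the count table, the untreated TPM table and treated cells). Of 40 ribosome assembly factors, 23 were higher and 0 lower in HMCES-KO cells of the count table (median log2 fold change 0.19, against -0.01 over all genes), led by Utp4 (0.44 ± 0.05), Rrp1b (0.40 ± 0.05) and Utp20 (0.39 ± 0.06), factors of early ribosomal RNA processing. The same list had 3 higher and 5 lower in the untreated TPM table and 7 higher and 17 lower in treated cells. Of 15 genes of the RNA polymerase I machinery, 6 were higher and 0 lower in the count table, with 0 higher and 4 lower in the untreated TPM table, and 5 higher and 1 lower in treated cells. Taf1a, a subunit of its selectivity factor, had 0.48 ± 0.11 in the count table and -0.45 ± 0.07 in the untreated TPM table.

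Other mRNAs known for a TOP tract were called in both directions. Of 20 translation factors of that kind, 3 were higher and 2 lower in the count table, 1 higher and 4 lower in the untreated TPM table, and 5 higher and 8 lower in treated cells. Eef1a1, the elongation factor that brings aminoacyl-tRNA, had -0.21 ± 0.05 in the count table, a value of 0.30 ± 0.07 in the untreated TPM table and -0.49 ± 0.09 in treated cells, each called. Of 11 small nucleolar RNA host genes with a TOP tract, 4 were higher and 0 lower in the count table and 1 higher and 8 lower in the untreated TPM table, where Snhg5 had -0.53 ± 0.04 against 0.44 ± 0.07 in the count table. The mitochondrial ribosomal protein genes had 12 higher and 11 lower of 77 in the count table, 3 higher and 5 lower of 78 in the untreated TPM table, and 14 higher and 21 lower of 76 in treated cells. Of 20 genes of growth and translation control, 9 were higher and 2 lower in the count table, 2 higher and 3 lower in the untreated TPM table, and 3 higher and 8 lower in treated cells.

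Paralogues with longer symbols were counted apart. Rpl10l, a retrogene copy of Rpl10 that takes its place in male meiosis in mice, was higher in the count table (1.32 ± 0.08, edgeR adjusted p = 1.59e-10) and in treated cells (1.23 ± 0.21, limma adjusted p = 0.000517), and had -0.05 ± 0.06 in the untreated TPM table. Rpl39l was higher in the count table (1.35 ± 0.09, edgeR adjusted p = 7.81e-10) and had -0.28 ± 0.12 in the untreated TPM table and 0.11 ± 0.25 in treated cells, neither called. Their parent genes Rpl10 and Rpl39 had log2 fold changes of 0.05 ± 0.09 and -0.07 ± 0.26 in the count table.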

How the data were processed

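RNA was made with a TIANGEN kit and libraries with an Illumina TruSeq RNA kit, per the labels. The deposited count table was made by the authors with featureCounts 2.0.1 on paired reads over exons of mm10 genes, per the file headers. The authors' TPM values were deposited for 5 tables, and the submitters' processing notes name FastQC 0.11.5, Bowtie2 2.3.3, featureCounts 2.0.1 and DESeq2. The treated tables list fewer genes, and the filter behind this is not stated.

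For the count table edgeR 4.0.16 was used, with filterByExpr and TMM factors, and TPM was tested with limma 3.58.1 on log2(TPM + 1), for genes of at least 1 TPM in 2 libraries, in R 4.3.3. The treated tables were restricted to their 12928 common genes, rescaled to a sum of 1e+06 and fitted together. DESeq2 1.42.0 was an alternative. An adjusted p under 0.05 over all genes was a call. SE of edgeR values was taken from the fold change and F. In the untreated TPM table, TPM times gene length over the value of 1 read gave whole reads for 100% of values above 0, within 0.01 read. For the treated tables the smallest whole numbers that fitted all libraries of a gene within 0.01 read were taken. These were found for 99.94% or more of values above 0, and the true reads could be multiples of them. Both sets of reads were also run with edgeR as an alternative. TPM fold changes understate differences of low genes because of the pseudocount of 1. The scripts were tested on simulated data. Members and lists were chosen with earlier results of these data known.

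Genes named were the stalk, laminin receptor and ubiquitin fusion members and other well-known members, per comparison the 5 highest and 5 lowest called, those called against the majority, the 5 highest and 5 lowest by WT level, the members on chromosomes 6 and 8, and up to 3 genes of each other list. Some genes that the rule names are not reported here. Among values given beyond that rule, those of Rpl14, Rps7, Rpl10a, Rpl13a and Rps25 were chosen after their values were seen.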

Additional observations from a re-analysis of the deposited data

Results flagged for a closer look

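The lines within HMCES-KO differed by the test of the difference itself in the 11 instances given here. In the count table, edgeR called KO8 against KO7 for Rpl38 (log2 fold change -1.65), Rps25 (-0.41), Rpl15 (-0.25), Rpl13a (-0.18), Rps3 (0.22), Rpl31 (0.28), Rps23 (0.41) and Rps19 (0.43). In the treated tables, limma called KO2 against KO1 for Rpl34 (-0.74), Rps25 (-0.52) and Rpl28 (-0.40). Calls of the count table were lost under 1 of 14 alternatives for Rpl15 and 7 of 14 for Rps25, with the others between. In the treated tables they were lost under 12 of 29 for Rpl34, 10 of 29 for Rps25 and 16 of 29 for Rpl28. Rps25 is in both lists, though which of KO7 and KO8 is KO1 or KO2 is not given. Rps25 had 75.9, 94.0, 77.5 and 77.5 TPM in KO2 and 101, 103, 147 and 119 TPM in KO1 with activin A, SB431542, BMP4 and LDN193189, lower in KO2 with each agent.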

How the results depend on the processing

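Over 98 pairs of a named gene and a comparison in which it was called, 2233 alternative values were computed. Of these 1803 kept direction and call, 430 kept direction and lost the call, and 0 changed direction. The pairs were picked for being called and the alternatives reuse the same libraries, so the 0 is no measure of how secure a direction is. The counts of members moved more, and those over all genes moved as well. For the mean of both HMCES-KO lines all genes went from 5476 calls to 3811 with DESeq2 and 1552 with the HMCES-KO libraries as 1 group. With DESeq2 the members called were 7 for the mean of both HMCES-KO lines, 5 for KO7, 7 for KO8 and 2 for KO8 against KO7. With the HMCES-KO libraries as 1 group they were 3. Library size scaling gave 10 for KO7. Without a filter KO8 against KO7 gave 14, and there were 10 in the untreated TPM table. Without a trended prior the counts were 1 in the untreated TPM table, 8 with activin A, 7 with SB431542, 4 with BMP4, 1 with LDN193189 and 0 for KO2 against KO1. Each table fitted alone gave 1 with BMP4 and 0 with LDN193189, and means over treatments gave 17 in the treated tables. KO2 against KO1 gave 1 without activin A, 0 without BMP4 and 1 without LDN193189. The cause was not tested.

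Leaving out each library in turn gave 9 to 27 calls for the HMCES-KO mean, 6 to 28 for KO7, 6 to 28 for KO8, 0 to 22 for KO8 against KO7, 2 to 37 in the untreated TPM table, 25 to 30 in the treated tables, 3 to 17 with activin A, 3 to 18 with SB431542, 3 to 17 with BMP4, 1 to 6 with LDN193189, 0 to 1 for BMP4 against LDN193189 and 0 to 5 for KO2 against KO1. Where a group was left with 1 library, that library was assumed to vary like the other groups. No counts over all genes are set beside these ranges, so they are no result about the members.

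As a ratio of HMCES-KO to WT, the share of reads was 1.05 in the untreated TPM table, 1.05 with activin A, 0.967 with SB431542, 0.966 with BMP4 and 0.962 with LDN193189. The mean log2 level gave 1.05 in the count table, 0.888 in the untreated TPM table and 1.06 with activin A. It gave 0.982 with SB431542, 0.921 with BMP4 and 0.939 with LDN193189.

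Replicate numbers did not pair HMCES-KO with WT libraries, whose deviations correlated at -0.041 to 0.052, while those of HMCES-KO libraries of 1 line correlated at 0.227 to 0.323 across agents. With a replicate block the counts were 15 for the HMCES-KO mean, 16 for KO7, 18 for KO8, 10 for KO8 against KO7, 23 in the untreated TPM table, 29 in the treated tables, 15 with activin A, 16 with SB431542, 11 with BMP4 and 5 with LDN193189. The median member had 108 to 187 reads per library, which limits what could be called for low members.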
